A study of Homo sapiens with 6 samples.

Results

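The mitochondrial ribosomal protein genes were taken as all genes whose symbol is MRPL or MRPS followed by a number and at most one letter from A to C. This rule on names found 76 of the 23228 genes in the count tables, spread over 21 chromosomes, and used no measured value. The cells were Hep3B, a long-established line from a human hepatocellular carcinoma. Control cells carried a non-targeting shRNA delivered by lentivirus, and PELP1-KD cells carried a PELP1 shRNA delivered in the same way, were selected with puromycin and were kept as pooled clones. Each group had 3 RNA-seq libraries, and the labels give no treatment beyond the shRNA. By title, all PELP1-KD libraries came from the first of the PELP1 shRNAs, but the treatment text lists both without assigning them. The comparison asked how RNA of these genes differed between control and PELP1-KD cells.

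The mitochondrial ribosome, or mitoribosome, translates the small set of oxidative phosphorylation subunits encoded in mitochondrial DNA. Its RNAs are made inside the organelle, but all of its proteins are encoded in the nucleus, translated on cytosolic ribosomes and imported. Some of these proteins belong to families shared with bacterial ribosomes, and others exist only in mitochondria and replace or extend lost ribosomal RNA. PELP1 is a nuclear coregulator and scaffold of a complex that matures the large subunit of the cytosolic ribosome, which is a separate particle with its own protein genes.

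PELP1 itself was examined first. The control libraries gave 4893, 4914 and 5102 normalized reads of PELP1, and those labelled PELP1-KD gave 4421, 4825 and 4840. The groups did not overlap, but the PELP1-KD mean was 94.5% of the control mean, and the difference did not pass the test (log2 fold change -0.08 ± 0.04 SE, edgeR adjusted p = 0.101). In a fit blocked by replicate number the value was -0.08 and did pass (edgeR adjusted p = 0.0106). It also passed without PELP1-KD replicate 3, at -0.10 (edgeR adjusted p = 0.0179). The RNA values alone therefore give only a small difference between the groups in the targeted gene. By Western blot, the paper reports less PELP1 protein in PELP1-KD cells, Hep3B among them, which RNA counts do not measure. Every direction below is between libraries named by their labels. Each library held between 26758636 and 34456864 reads on genes. Hepatocyte genes such as ALB and AFP were abundant in both groups, and CDH5 of endothelium had 0 reads in every library. Levels are given as RPKM, reads per kilobase of exon per 1e6 reads of the library size after TMM scaling. The fetal hepatocyte gene AFP had mean levels of 2214 RPKM in control and 3414 in PELP1-KD, and the bile duct keratin KRT19 had 281 and 524 RPKM. The part of such shifts in the results below was not tested. Nothing in the labels says that replicates were separate cultures, so p-values measure only the spread between these libraries.

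All 76 genes passed the filter on low counts, among 14537 genes tested. As a group they did not move in one direction. At an edgeR adjusted p below 0.05, 20 of the 76 were lower in PELP1-KD (26.3%, beside 26.7% of all tested genes), 9 were higher (11.8%, beside 26.8% of all tested genes), and 47 did not pass. In either direction, 53.6% of all tested genes passed. DESeq2 called 18 lower and 8 higher, beside 21.5% and 20.2% of the genes to which it gave an adjusted p. Among the 6178 tested genes in the same range of levels, 27.8% were lower and 29.4% higher. The median log2 fold change of the 76 genes was 0.02, with the middle 50% between -0.11 and 0.09, whereas all tested genes had a median of 0.004 and a middle range of -0.19 to 0.20. Of the 76 genes, 51 lay within 10% of their control mean, and no gene both passed the test and changed 2-fold, as 7.64% of all tested genes did. Genes in the same range of levels also spread less than all tested genes. Their middle 50% lay between -0.14 and 0.15, and 105 of the 6178 changed 2-fold, whether called or not. The groups did not overlap for 22 genes lower in PELP1-KD (29.3% of all tested genes did so in this direction) and for 16 higher in PELP1-KD (29.5%), and 58.8% of all tested genes lay apart in either direction. The number called higher depended on the fit. It was 16 with the replicate number as a block, beside 30.4% of all tested genes. Without PELP1-KD replicate 1 it was 15, a fit for which the share of all tested genes was not taken. The number called lower was 23 with the block, also beside 30.4% of all tested genes.

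**Figure D1:**
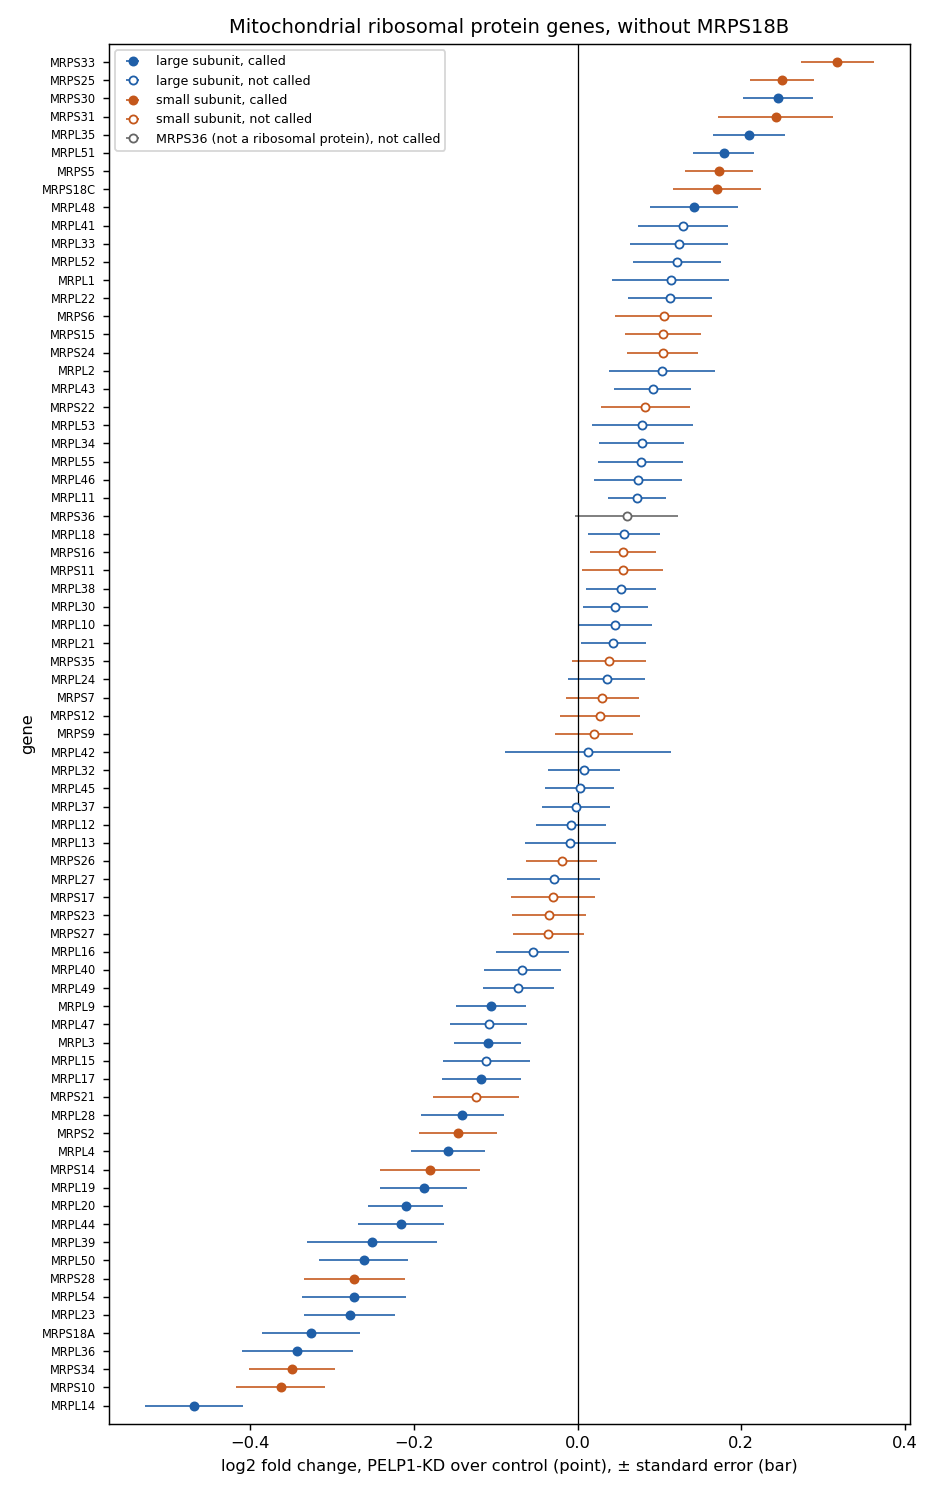
Log2 fold change of PELP1-KD over control for 75 of the 76 genes, sorted, with the standard error of the edgeR fit as a bar; filled points passed an adjusted p of 0.05, blue marks the large subunit and orange the small subunit. Values run from -0.47 for MRPL14 to 0.32 for MRPS33, and genes of both subunits lie at both ends; MRPS18B is left out because its standard error of 0.49 is far above the others.

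The summed RNA of the family hardly differed. Summed normalized reads of the 76 genes were 141128, 141614 and 140557 in control and 140137, 141776 and 144216 in PELP1-KD. The PELP1-KD libraries thus lay on both sides of the control libraries, with means of 141100 ± 529 and 142043 ± 2052 (SD, n = 3 each). As a share of all reads on genes, the family took 0.446% ± 0.0025 in control and 0.454% ± 0.0032 in PELP1-KD, and these shares did not overlap, but the difference shrank to 0.003 percentage points once library sizes were scaled by TMM. In bulk RNA, fewer cells carrying an RNA and less of it per cell cannot be told apart.

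Promoters of 4 genes that lay at the ends of this range are shown first, to set the letters of binding motifs beside the values that follow. Each runs from 250 bases before to 50 bases after the annotated start in RefSeq (GRCh38.p14), is on the minus strand and is written 5′ to 3′. Capitals mark the letters of 4 motifs searched on both strands: GCGCNTGCG of NRF1, CCGGAAG of the ETS family to which GABPA belongs, AAGATGG of YY1 and CACGTG, the E-box bound by MYC and MAX. These factors are known regulators of nuclear genes for mitochondrial proteins. MRPL14 (chr6:44127259-44127558) was the lowest and holds an NRF1 motif. MRPS10 (chr6:42217812-42218111) was next and holds ETS and YY1 letters. MRPS33 (chr7:141014903-141015202) was the highest of the genes that passed the test and holds NRF1 and ETS letters. MRPS25 (chr3:15065266-15065565) followed it and holds none of the 4.
MRPL14: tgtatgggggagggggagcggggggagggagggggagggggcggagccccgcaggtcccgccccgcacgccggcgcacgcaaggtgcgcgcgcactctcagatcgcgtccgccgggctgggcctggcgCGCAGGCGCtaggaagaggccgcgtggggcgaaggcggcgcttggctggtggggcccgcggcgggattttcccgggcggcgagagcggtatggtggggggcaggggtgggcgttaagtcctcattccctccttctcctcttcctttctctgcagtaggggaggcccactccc
MRPS10: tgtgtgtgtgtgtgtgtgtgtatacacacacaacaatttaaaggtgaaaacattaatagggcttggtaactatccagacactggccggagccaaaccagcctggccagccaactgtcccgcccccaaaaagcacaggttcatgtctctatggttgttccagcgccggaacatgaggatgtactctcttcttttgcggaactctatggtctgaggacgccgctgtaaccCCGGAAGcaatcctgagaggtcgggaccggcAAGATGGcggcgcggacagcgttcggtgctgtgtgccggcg
MRPS33: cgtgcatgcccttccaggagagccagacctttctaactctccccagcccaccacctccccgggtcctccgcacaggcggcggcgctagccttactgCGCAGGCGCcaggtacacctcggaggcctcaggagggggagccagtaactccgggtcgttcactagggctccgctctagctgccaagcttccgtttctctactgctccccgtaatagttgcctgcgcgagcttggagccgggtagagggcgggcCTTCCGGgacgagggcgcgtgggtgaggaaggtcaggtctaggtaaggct
MRPS25: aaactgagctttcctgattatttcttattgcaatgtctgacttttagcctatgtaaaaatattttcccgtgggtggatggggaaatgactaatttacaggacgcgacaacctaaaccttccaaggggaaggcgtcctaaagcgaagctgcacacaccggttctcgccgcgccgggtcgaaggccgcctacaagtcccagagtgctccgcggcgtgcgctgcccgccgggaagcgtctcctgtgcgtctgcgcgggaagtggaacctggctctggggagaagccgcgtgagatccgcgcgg

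Of the 76 genes, 68 had a promoter in the RefSeq table, MRPS36 under its current symbol KGD4. ETS letters were present in 41.2% of them, beside 18.2% of the 9865 promoters of tested genes and 10.2% of all 34796 promoters. YY1 letters were present in 33.8%, beside 7.39% and 5.83%. NRF1 letters were present in 14.7%, beside 14.2% and 7.44%, and the E-box in 10.3%, beside 10.1% and 7.21%. The motifs were found in genes that moved either way and in those that did not pass. ETS letters were in 7 of 18 promoters of genes called lower, 5 of 8 called higher and 16 of 42 not called. YY1 letters were in 5, 2 and 16 of the same promoters. A match is a run of letters in this window and not a measured binding site.

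Proteins of the large subunit made up 49 of the 76 genes. Of these, 15 were lower (30.6%, beside 26.7% of all tested genes) and 4 higher (8.16%, beside 26.8%), with a median log2 fold change of 0.003. With the replicate block 17 were lower and 9 higher, where 30.4% of all tested genes were called in each direction. Of the 26 genes for small-subunit proteins, 5 were lower and 5 higher (19.2% each), with a median of 0.03. By origin, 48 genes belong to families shared with bacteria, of which 15 were lower (31.2%) and 3 higher (6.25%), or 18 and 7 with the block, with a median of 0.01. The other 27 are specific to mitochondria, with 5 lower (18.5%) and 6 higher (22.2%) and a median of 0.04. In the large subunit, 11 of 31 genes of bacterial families were lower and 1 higher, beside 4 lower and 3 higher of 18 mitochondrion-specific genes. In the small subunit these were 4 lower and 2 higher of 17, beside 1 lower and 3 higher of 9. The classes were not tested against each other. MRPS36, the remaining gene by name, encodes a subunit of the 2-oxoglutarate dehydrogenase complex and no ribosomal protein, and its value was 0.06 ± 0.06 (not called).

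MRPL14, a large-subunit protein at the interface with the small subunit, fell most. Its normalized reads were 943, 932 and 891 in control and 639, 648 and 711 in PELP1-KD (log2 fold change -0.47 ± 0.06, edgeR adjusted p = 1.83e-06). Every PELP1-KD library was below every control library, and the mean was 72.2% of control. MRPS10, of the head of the small subunit, had 1164, 1184 and 1087 in control and 926, 872 and 874 in PELP1-KD (-0.36 ± 0.05, edgeR adjusted p = 1.28e-05). MRPS18A, which despite its name sits in the large subunit, had 853, 851 and 837 against 630, 706 and 693 (-0.33 ± 0.06, edgeR adjusted p = 0.000131). Neither showed overlap.

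MRPS34, a mitochondrion-specific small-subunit protein whose loss causes Leigh syndrome in patients, had normalized reads of 1999, 1994 and 2038 in control and 1436, 1627 and 1674 in PELP1-KD (-0.35 ± 0.05, edgeR adjusted p = 1.30e-05). MRPL36, a short protein of bacterial family in the large subunit, had 635, 679 and 661 against 494, 503 and 558 (-0.34 ± 0.07, edgeR adjusted p = 0.000274). In both genes the groups were apart, with PELP1-KD replicate 1 the lowest library. MRPL23, which lies at the exit of the peptide tunnel, had 1568, 1499 and 1548 against 1181, 1238 and 1384 (-0.28 ± 0.06, edgeR adjusted p = 0.000305), again without overlap.

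The other 4 of the 10 genes with the smallest p among those lower without overlap were MRPL54, MRPS28, MRPL50 and MRPL20. MRPL54, a mitochondrion-specific protein, changed by -0.27 ± 0.06, and MRPS28 of the small subunit by -0.27 ± 0.06. MRPL50, also mitochondrion-specific, changed by -0.26 ± 0.05, and MRPL20, of bacterial family, by -0.21 ± 0.05. PELP1-KD means of these 4 genes lay between 82.7% and 86.5% of control. The remaining 10 genes called lower were MRPL3, MRPL4, MRPL9, MRPL17, MRPL19, MRPL28, MRPL39, MRPL44, MRPS2 and MRPS14, of which MRPL3 and MRPL39 overlapped between groups. Of the 20 genes, 13 were called in each of the 6 fits that left out 1 library. The calls of MRPL3, MRPL9, MRPL17, MRPL28, MRPL39, MRPS2 and MRPS14 were lost in at least 1 of them.

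MRPS33, a small mitochondrion-specific protein of the small subunit, rose most. Its normalized reads were 1638, 1662 and 1565 in control and 2019, 1991 and 2053 in PELP1-KD (0.32 ± 0.04, edgeR adjusted p = 5.38e-06). The PELP1-KD mean was 125% of control and the groups were far apart relative to their spread. MRPS25, also mitochondrion-specific and in the small subunit, had 2916, 2971 and 3087 against 3582, 3508 and 3579 (0.25 ± 0.04, edgeR adjusted p = 2.33e-05). MRPS30, a mitochondrion-specific protein that sits in the large subunit, had 2231, 2106 and 2057 against 2541, 2499 and 2537 (0.25 ± 0.04, edgeR adjusted p = 7.83e-05). Neither overlapped, and the PELP1-KD libraries lay close together. The exons of MRPS25 share 762 bases with NR2C2 on the opposite strand, and reads were counted by strand.

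MRPS31, a mitochondrion-specific protein of the small subunit, had 430, 412 and 393 normalized reads in control and 499, 469 and 492 in PELP1-KD (0.24 ± 0.07, edgeR adjusted p = 0.00709). MRPL35 of bacterial family changed by 0.21 ± 0.04 and MRPL51, the gene with the highest level per length, by 0.18 ± 0.04. MRPS5, which lines the messenger RNA entry, changed by 0.17 ± 0.04, MRPS18C by 0.17 ± 0.05 and MRPL48 by 0.14 ± 0.05. All 9 genes called higher were without overlap between groups, at 110% to 125% of control, and 7 were called in each of the 6 fits that left out 1 library. The calls of MRPS18C and MRPL48 were not.

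**Figure D2:**
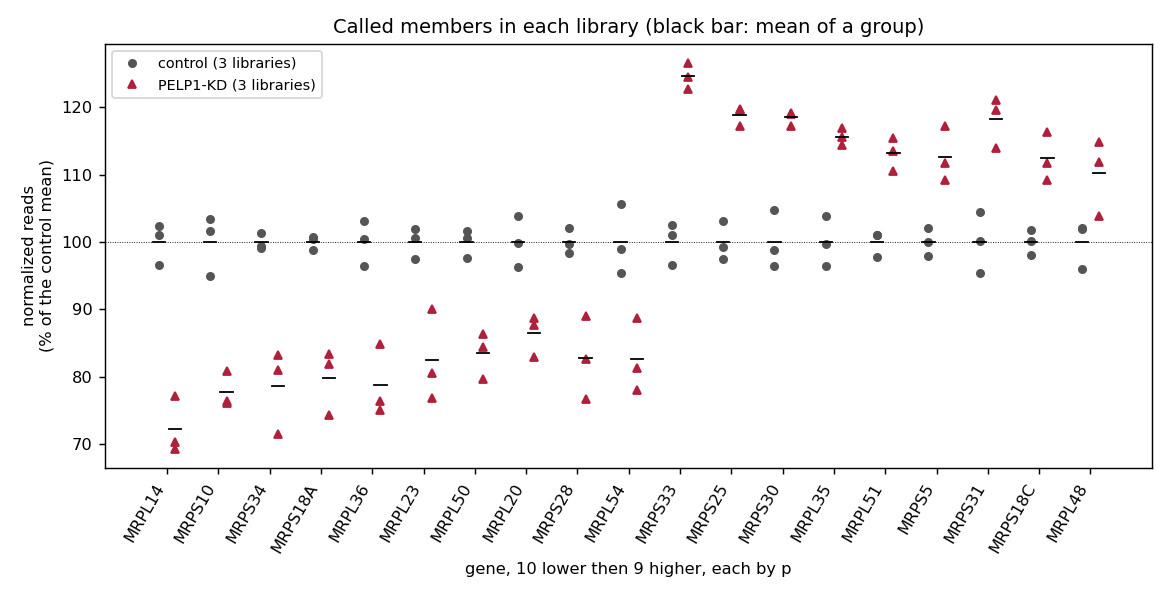
Normalized reads in each library, as a percent of the gene's control mean, for the 10 genes with the smallest p among those lower without overlap and for the 9 called higher; grey circles are control libraries, red triangles PELP1-KD libraries and black bars group means. In every gene the triangles lie wholly below or wholly above the circles, with means from 72.2% for MRPL14 to 125% for MRPS33.

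Genes of several well-known parts of the mitoribosome did not pass the test. Of the stalk that recruits translation factors, MRPL10 had a value of 0.05 ± 0.05, MRPL11 0.07 ± 0.04 and MRPL12 -0.01 ± 0.04. MRPL11 had 10120, 10058 and 10168 normalized reads in control and 10318, 10370 and 11221 in PELP1-KD, so it did not overlap, and it passed with the replicate block (edgeR adjusted p = 0.00881). MRPL32, which is matured by the m-AAA protease before it joins the ribosome, had a value of 0.01 ± 0.04, with 2014, 2063 and 1912 against 1959, 2035 and 2028 normalized reads. MRPL33 and MRPL34 had 0.12 ± 0.06 and 0.08 ± 0.05, and MRPS12, of the decoding centre, had 0.03 ± 0.05. Among the genes not called, values other than that of MRPS18B ran from -0.12 to 0.13. With the block, MRPL15, MRPL47 and MRPS21 were also called lower, and MRPL11, MRPL22, MRPL41, MRPL43, MRPL52, MRPS15 and MRPS24 higher.

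The 3 S18 paralogs had unlike values. MRPS18A fell and MRPS18C rose, as given above. MRPS18B had normalized reads of 10.1, 5.75 and 6.68 in control and 5.12, 11.7 and 23.0 in PELP1-KD, so the groups overlapped (0.82 ± 0.49, edgeR adjusted p = 0.169). This gene is annotated on 7 sequences of hg19, namely chromosome 6 and 6 alternative haplotypes of the same region, so its level is uncertain.

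Levels per length differed widely within the family. MRPL51 had the highest mean level, at 192 ± 3.6 RPKM in control and 218 ± 4.8 in PELP1-KD (SD, n = 3). MRPL11 followed at 191 ± 1.0 and 201 ± 9.6, and its control libraries overlapped in level with the control libraries of MRPL51, but not so in PELP1-KD. MRPS24 came next at 160 ± 3.3 and 171 ± 9.8, apart from MRPL11, but 606 of its 696 exon bases are shared with the readthrough gene URGCP-MRPS24 on the same strand. The median over the 76 genes was 37.2 RPKM. The lowest were MRPS14, at 10.3 RPKM over both groups, MRPL19, of the large subunit, at 6.91 ± 0.23 and 6.07 ± 0.43, and MRPS18B, with 0.156 ± 0.047 and 0.275 ± 0.19 on its chromosome 6 exons. These 3 did not overlap in level with each other. Called genes lay at both high and low levels, and across the 76 genes log2 fold change and log2 level had a Spearman rho of 0.047 (Pearson r -0.24). These points share the same 6 libraries and are no replicates. Both coefficients include MRPS18B, which at 0.82 and 0.215 RPKM over both groups lies apart from the other genes.

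**Figure D3:**
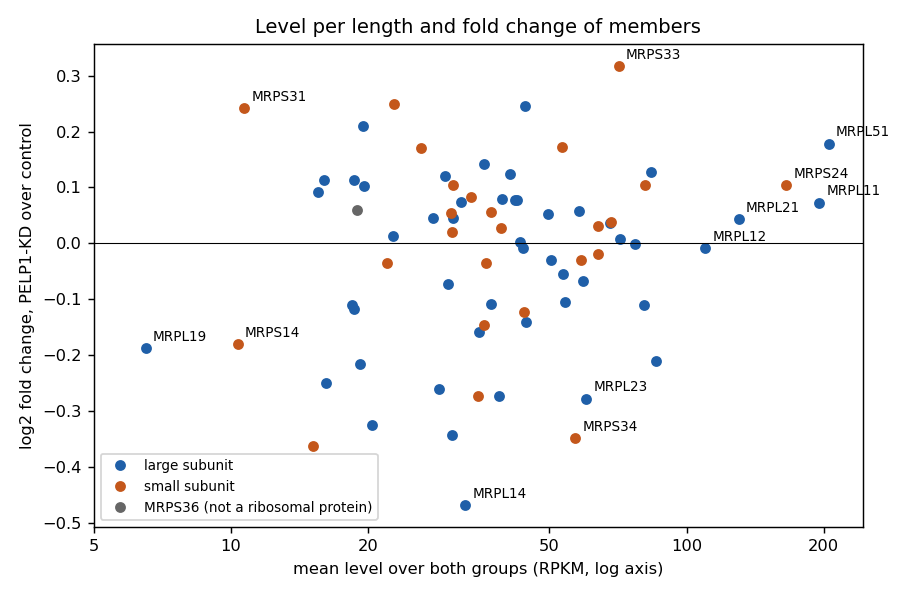
Mean level over both groups (RPKM, log axis) against log2 fold change of PELP1-KD over control for the 75 genes other than MRPS18B, coloured by subunit. Levels run from 6.49 RPKM for MRPL19 to 205 RPKM for MRPL51, and positive and negative values occur over most of the range. Above MRPL20, at 85.8 RPKM, the only negative value is -0.008 for MRPL12. MRPL19 and MRPS14, the lowest in level here, are both negative.

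The position of a gene on its chromosome was compared with its value because several genes lie on 6p, 11p15 and chromosome 13. Earlier results of these same libraries had shown segments with lowered expression there. Lower neighbours on these segments were thus known beforehand and are no independent observation. For each gene, the median log2 fold change of tested genes outside the family within 1 Mb was taken, where there were at least 5. On 6p (hg19), MRPS10 (chr6:42174539-42185633), MRPS18A (chr6:43638934-43655549) and MRPL14 (chr6:44081373-44095191) lay among genes that were lower as well. The neighbour medians were -0.37 over 31 genes, -0.40 over 38 and -0.45 over 26, close to the genes' own values of -0.36, -0.33 and -0.47. MRPL2 (chr6:43021767-43027242), which lies near the peptidyl transferase centre, was set between them with a neighbour median of -0.36 over 34 genes. Its own normalized reads were 713, 792 and 789 in control and 815, 762 and 882 in PELP1-KD, a value of 0.10 ± 0.07 with overlap of the groups. MRPS18B, elsewhere on the arm, had a neighbour median of -0.24 over 30 genes.

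MRPL23 (chr11:1968502-1977839) at 11p15 was close to the imprinted genes H19 and IGF2. Its neighbours had a median of -0.82 over 23 genes, well below its own -0.28. MRPL17, further along 11p15 at chr11:6701616-6704632, had a value of -0.12 ± 0.05 and a neighbour median of 0.08 over 20 genes. MRPS31 on chromosome 13 (chr13:41303432-41345347) rose, whereas its 15 neighbours had a median of -0.17. Over the 70 genes with enough neighbours, the 2 values had a Pearson r of 0.39 and a Spearman rho of 0.40, where the points share the 6 libraries and in part the same neighbours. Of the 10 genes with a neighbour median below -0.2, 7 were called lower, and of the other 60, 10 were, beside 26.7% of all tested genes. These 10 include MRPL23 and the genes on 6p. The cutoff of -0.2 was not among the planned choices. The share called lower among all tested genes with such neighbours was not taken. Without the 8 genes on 6p, 11p15 and chromosome 13, 15 of 68 were lower and 8 higher, with a median of 0.03. Off these segments, MRPL54 had a value of -0.27 and a neighbour median of -0.27 over 50 genes. MRPL28 and MRPS2 had values of -0.14 and -0.15 and neighbour medians of -0.20 and -0.21. MRPS34 and MRPL36 had neighbour medians of -0.04 and -0.11, nearer to zero than their own values. MRPL50 and MRPS28 had neighbour medians of -0.10 and 0.09, beside values of -0.26 and -0.27.

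**Figure D4:**
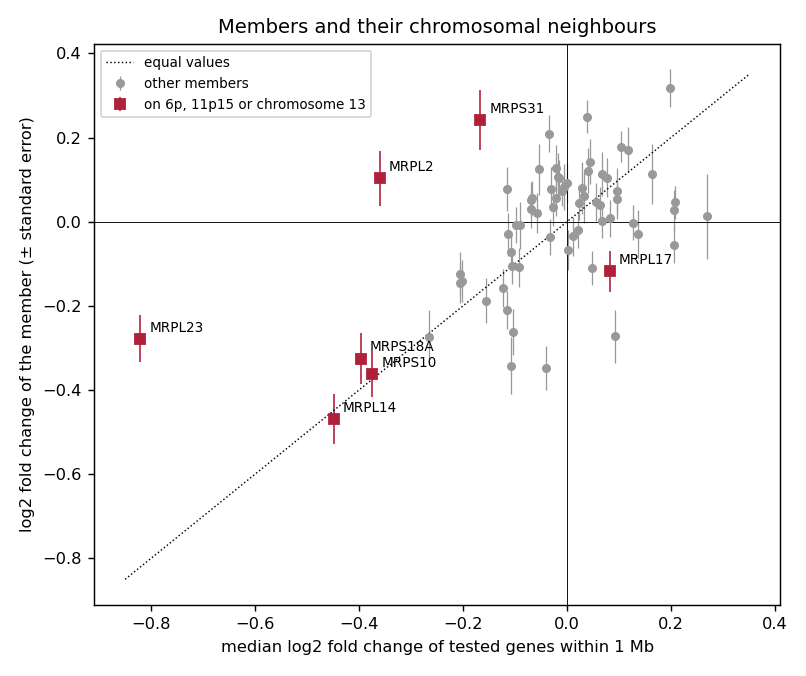
Log2 fold change of each gene (with its standard error) against the median of tested genes outside the family within 1 Mb; red squares lie on 6p, 11p15 or chromosome 13, grey circles elsewhere, and the dotted line marks equal values. MRPL14, MRPS10 and MRPS18A lie on or near the line at about the value of their neighbours, while MRPL2 and MRPS31 lie above 0 among neighbours below 0 and MRPL23 is less negative than its neighbours.

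Proteins of the mitoribosome whose symbols fall outside the naming rule were examined beside the 76 genes. Of these 7, DAP3, a GTP-binding protein of the small subunit, rose by 0.22 ± 0.03, AURKAIP1 by 0.13 ± 0.04 and CHCHD1 by 0.17 ± 0.06. GADD45GIP1 of the large subunit fell by 0.15 on the log2 scale. DAP3 had 6267, 6294 and 6431 normalized reads in control and 7267, 7518 and 7345 in PELP1-KD, with no overlap (edgeR adjusted p = 1.92e-05). MRP63, PTCD3 and ICT1 had values of 0.06, 0.04 and 0.0002 and did not pass.

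Among genes that build or serve the mitoribosome, calls are read beside the 26.7% lower and 26.8% higher of all tested genes. Of 21 translation factors, 5 were lower and 5 higher (23.8% each, near that background, median -0.001). The initiation factor MTIF3 had 473, 478 and 504 normalized reads in control and 278, 256 and 301 in PELP1-KD (-0.80 ± 0.08, edgeR adjusted p = 5.50e-08), and its neighbours on chromosome 13 had a median of -0.58. The elongation factor GFM1 changed by -0.36 and the rescue factor C12orf65 by -0.32, whereas the initiation factor MTIF2 rose by 0.28, and PET112 and QRSL1, of the enzyme that makes mitochondrial glutaminyl-tRNA, by 0.19 and 0.17. The translocase-like factor GUF1 changed by -0.23.

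Of 32 assembly factors, 9 were lower (28.1%) and 8 higher (25%), again near the background, with a median of -0.02. TFB1M, which methylates the small-subunit RNA, had 429, 444 and 405 normalized reads in control and 276, 265 and 292 in PELP1-KD (-0.62 ± 0.08, edgeR adjusted p = 1.63e-06). GRSF1, an RNA granule protein, changed by -0.24 and C1QBP by -0.20. ERAL1, a GTPase that binds the small-subunit RNA, rose by 0.19, and AFG3L2 and SPG7, the subunits of the m-AAA protease that matures MRPL32, rose by 0.21 and 0.20. The last pair also stands in the list of 15 proteases and chaperones, of which 6 were lower (40%) and 3 higher (20%, median -0.03). There, PMPCB, of the presequence protease, rose by 0.18, the chaperonin HSPD1 changed by -0.21 and the import receptor TOMM20 by -0.20. The peptidase MIPEP changed by -0.85 ± 0.07, and its neighbours on chromosome 13 had a median of -0.91.

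Of 18 genes for mitochondrial DNA and its transcription, 3 were lower (16.7%) and 4 higher (22.2%), with a median of -0.004. The RNA polymerase POLRMT changed by -0.17, the RNase P subunit KIAA0391 by -0.20 and the transcription factor TFB2M by -0.15, although TFB2M overlapped between groups. PNPT1, an RNA-degrading enzyme, rose by 0.28, the elongation factor C17orf42 by 0.35 and the single-stranded DNA binding protein SSBP1 by 0.13. Of 17 regulators of mitochondrial biogenesis, 5 were lower (29.4%) and 3 higher (17.6%), with a median of -0.005. MYC had 3233, 3232 and 3444 normalized reads in control and 2394, 2348 and 2565 in PELP1-KD (-0.44 ± 0.04, edgeR adjusted p = 8.27e-08). GABPA, which binds the ETS letters counted above, had 988, 1071 and 871 against 779, 746 and 685 (-0.41 ± 0.07, edgeR adjusted p = 7.47e-05). The kinase subunit PRKAA2 changed by -0.52, whereas its paralog PRKAA1 rose by 0.24, MAX rose by 0.16 and the coactivator PPARGC1B rose by 0.80.

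The cytosolic ribosomal protein genes and the nuclear genes of oxidative phosphorylation were set beside the family. Of 85 tested cytosolic ribosomal protein genes, 25 were lower (29.4%) and 12 higher (14.1%), or 30 and 23 with the replicate block, with a median of -0.02. RPL21 changed by -0.86 ± 0.04 among neighbours on chromosome 13 with a median of -0.63, RPL27A by -0.40 and RPL22L1 by -0.85, and RPS4X, RPS16 and RPS14 rose by 0.21, 0.15 and 0.11. Of 76 tested genes for nuclear-encoded respiratory chain and ATP synthase subunits, 8 were lower (10.5%) and 27 higher (35.5%), or 13 and 35 with the block, with a median of 0.06. COX7B, COX5A and COX4I1, of the terminal oxidase, rose by 0.42, 0.29 and 0.25, and ATP5G2, ATP5D and NDUFS1 changed by -0.19, -0.18 and -0.15. Differences between these lists and the mitochondrial ribosomal protein genes were not tested.

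**Figure D5:**
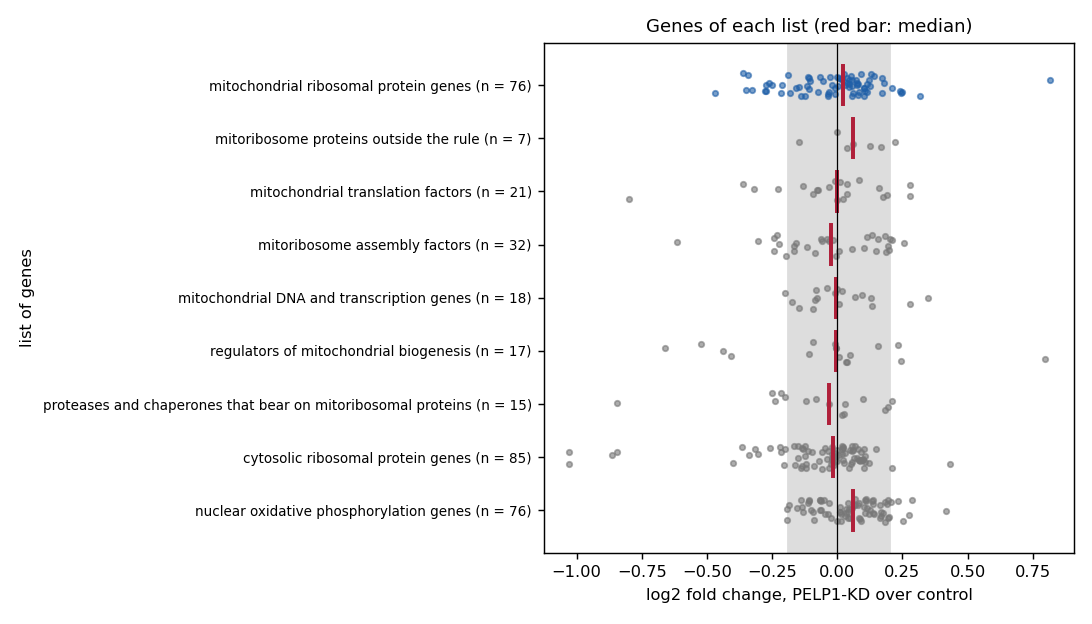
Log2 fold change of PELP1-KD over control for every tested gene of each list (points) with its median (red bar); blue points are the 76 mitochondrial ribosomal protein genes and the grey band is the middle 50% of all tested genes, from -0.19 to 0.20. All medians lie between -0.03 and 0.06, and single genes of the other lists lie below the lowest of the 76 genes.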

How the data were processed

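Poly(A)-selected or ribosome-depleted RNA (the sources differ on the kit, and on single or paired reads) of 3 control and 3 PELP1-KD libraries was sequenced. The authors deposited estimated counts per gene on hg19, with no normalization. Per the submitters' processing notes, bcl2fastq, HISAT2, SAMtools and featureCounts were used, whereas the paper's methods name TopHat2 and HTSeq. The file headers give featureCounts 1.5.0-p1, counted by strand from mapping quality 2 upwards, and reads matching several places or genes were shared out as fractions.

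Estimated counts were rounded to whole numbers. Of 23228 genes, 14537 passed filterByExpr and were fitted with edgeR 4.0.16 in R 4.3.3 (TMM, robust glmQLFit, glmQLFTest, Benjamini-Hochberg over all tested genes, threshold 0.05). Normalized reads are reads over the library size after TMM scaling, set relative to the geometric mean of all libraries, and ± after a log2 fold change is a standard error (median 0.063 over all tested genes). Libraries of one group differed by more than counting error (chi-square per degree of freedom 1.94 to 7.02), so none was counted as a copy of another. On simulated counts for PELP1-KD against control (14434 genes), edgeR recovered 72 of 100 genes changed by 0.3 on the log2 scale and 99 of 100 changed by 1, with 10 false calls.

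Labels carry replicate numbers. Deviations from the group means correlated between control and PELP1-KD libraries of the same number at 0.336, 0.247 and 0.665 over 6369 genes, so a fit with the number as a block was the paired alternative. Control replicate 2 and PELP1-KD replicate 1 had 0.417, so the pairing of replicates 1 and 2 rests on the labels. Other alternatives were DESeq2 1.42.0 (the study's tool), DESeq2's size factors, upper-quartile and plain library scaling, other filters, an adjusted p below 0.01 and each library left out. A block with GC and length correction, and leaving out the genes on 6p, 11p15 and chromosome 13, were chosen after the data had been seen.

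The members and lists were chosen with earlier results of these data known, so no list has a p-value of its own. Named were PELP1, the 10 genes with the smallest p in each direction among those called without overlap, the 3 highest and 3 lowest levels, the S18 and stalk proteins, MRPL32 to MRPL36, MRPS12, MRPS30, MRPS36, genes on 6p, 11p15 and chromosome 13, genes whose call changes with the block or scaling, and the 3 smallest p in each direction of every other list. Promoter sequences are from RefSeq (GRCh38.p14); the NRF1 letters were shortened by 1 base after the data had been seen. No coordinates were converted between builds.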

Additional observations from a re-analysis of the deposited data

How the results depend on the processing

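Groups of 3 leave small differences undetected, and a gene that did not pass is not shown to be unchanged. The number of mitochondrial ribosomal protein genes called lower stayed between 15 and 26 over all alternatives except an adjusted p below 0.01, which left 13. The number called higher was less steady. It was 9 with DESeq2's size factors and upper-quartile scaling and 8 with DESeq2. It was 15 with plain library size, 16 with the replicate block, 18 with the block and a length correction, and 17 with the block and a GC and length correction. Leaving out 1 library gave 7 to 15. Of all tested genes, 30.4% were called higher with the block, 30.4% with the block and GC and length correction, and 20.2% with DESeq2. The shares called lower were 30.4%, 32.1% and 21.5%. For the other alternatives this share was not taken, so a change in these genes cannot be told from a change in all genes. DESeq2 called 18 of the 20 lower genes (not MRPL9 and MRPL17) and 8 of the 9 higher ones (not MRPL48). The block ended none of the calls of these genes and changed no call other than those given beside the results. Plain library size, which moves the median of all genes to 0.021, ended the calls of MRPL3, MRPL9 and MRPL17. PELP1 was at -0.083 with the block, -0.077 with the block and a length correction and -0.082 with the GC and length correction, each past the threshold, and at -0.105 to -0.040 with 1 library left out.

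With plain library size the median of the 76 genes was 0.040 and that of the mitochondrion-specific genes 0.056. With 1 library left out, medians ranged from -0.012 to 0.031 for the large subunit, from -0.0067 to 0.032 for bacterial families, from 0.019 to 0.078 for mitochondrion-specific genes, from -0.032 to 0.025 for translation factors, from -0.038 to 0.0076 for mitochondrial DNA and transcription genes and from -0.088 to 0.0043 for proteases and chaperones. The difference in share of reads was 0.0030, 0.0018 and 0.0016 percentage points with TMM, DESeq2's size factors and upper-quartile scaling. Among the genes picked for naming, 3 near 0 changed sign, namely MRPL12, MRPL32 and MRPS12. Genes that were not picked also changed sign with 1 library left out, such as MRPL37 (-0.027 to 0.027) and MRPL42 (-0.058 to 0.11). MRPL12 was at 0.0080 with plain library size, 0.0016 with the block and GC and length correction, and -0.049 to 0.019 with 1 library left out. MRPL32 ranged from -0.019 to 0.032 and MRPS12 from -0.022 to 0.064 with 1 library left out. The causes of these changes were not tested.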
